A study of Homo sapiens with 15 samples.

Results

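The measurements compare RPMI-8226 cells exposed to 100 nM KB528 for 3 h with cells given the solvent DMSO. RPMI-8226 is an established human multiple myeloma line, and KB528 is described by the submitters as an inhibitor of the lysine acetyltransferase activity of p300. The groups were KB528 for 3 h (3 libraries, genotype field KB528) and DMSO at 0 h (3 libraries, genotype field WT), which are 6 of the 15 libraries of the series. The genotype field repeats the treatment, and every library came from the same line, kept in RPMI 1640 with 10% FBS. The other 9 libraries were KB528 at 1, 6 and 24 h, 3 at each time, and share the same DMSO controls. Expression was read by strand-specific mRNA sequencing and is given in TPM, a share of each library adjusted for transcript length. The genes compared were all 12002 of 26364 gene rows (45.5%) whose mean over the 15 libraries was at least 1 TPM, leaving out the 92 rows of synthetic ERCC spike-in RNA.

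Several features limit the comparison. The DMSO libraries were taken at a single time, so an effect of 3 h of handling or culture cannot be told apart from one of KB528. The table names these columns as untreated at 0 h, whereas the sample titles name DMSO. Whether the 3 libraries in each group derive from different cultures is not stated; a p-value therefore covers spread among these libraries only, which may be technical. In bulk RNA, fewer cells of a kind and less RNA per cell cannot be told apart.

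The acetyltransferases p300 (EP300) and CBP (CREBBP) are coactivators that transcription factors bring to enhancers and promoters, where they acetylate histone tails, including those of histone H3, and transcription factors themselves. Acetylated chromatin is read by BET bromodomain proteins, and release of the elongation kinase P-TEFb lets paused RNA polymerase II move on. Myeloma cells are malignant plasma cells that depend on the factor IRF4 and on its target MYC, and the series title names IRF4 as the activity studied.

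TPM tables hold no read totals. Judged by what 1 read is worth in low genes, depth ranged over the 6 libraries from 0.943 to 1.12, with DMSO replicate 1 set to 1. Between 11616 and 11793 genes reached 1 TPM in the KB528 libraries and between 11806 and 11988 in the DMSO libraries. All 10 plasma cell markers passed the filter, with summed levels of 6957 to 7594 TPM with KB528 and 7720.5 to 8542 TPM with DMSO. The T cell markers CD3D, CD3E, CD3G and CD2, the myeloid markers LYZ, CSF1R, ITGAM and FCGR3A and all 5 fibroblast markers were below it. The T cell marker CD8A passed, at 1.43 to 1.82 TPM with KB528 and 1.58 to 1.95 TPM with DMSO. The myeloid marker CD14 passed too, at 0.839 to 1.06 TPM with KB528 and 1.12 to 1.4 TPM with DMSO. Neither was called as changed. Of 5 epithelial markers 3 were present, summing to 240.1 to 246 TPM with KB528 and 263 to 266 TPM with DMSO. Of these, KRT18 (log2 fold change -0.25 ± 0.046 (SE)) and KRT8 fell, and EPCAM held 113 TPM in DMSO; the haemoglobin gene HBA2 also fell (log2 fold change -0.36 ± 0.11 (SE)), and the part of these genes in other results was not tested. The HBA2 call ended without KB528 replicate 3 (-0.28, adjusted p = 0.0521 by limma) and that of KRT8 without DMSO replicate 2 (-0.20, adjusted p = 0.0548). The other tested erythroid marker, HBA1, had a log2 fold change of 0.099 and did not pass. Spike-in RNA took 13.7% to 16.6% of TPM with KB528 and 11.3% to 14.8% with DMSO, ranges that overlap.

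After 3 h the response was broad and mostly of modest size. Of 12002 genes, 6827 passed an adjusted p of 0.05 (56.9%), 2991 higher (24.9%) and 3836 lower (32%) with KB528. The test was limma on log2(TPM + 1) with Benjamini-Hochberg adjustment, and 7392 genes had an unadjusted p under 0.05. The median log2 fold change over all genes was -0.042, with quartiles of -0.24 and 0.18. Changes past 2-fold were more often decreases, 139 higher and 278 lower (1.16% and 2.32% of all genes), and past 4-fold there were 5 higher and 18 lower. Protein-coding genes made up 59 of the 139 and 231 of the 278. The groups did not overlap in 2911 higher genes (24.3%) and 3655 lower genes (30.5%).

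The split between directions depends on how libraries are put on one scale. Higher genes were 43.8% of calls on the TPM scale and 14% after scaling to the spike-ins, when 411 genes were called higher and 2523 lower and the median over all genes moved by -0.20. None of the 6827 called genes was called the other way under spike-in scaling. Directions below are relative to the summed TPM of each library, and counts with spike-in scaling are given where they turn a group round or move a count by over 1.5 times. Counts of list members on the TPM scale are to be read beside the 24.9% of all genes called higher and the 32% called lower. Those with spike-in scaling are to be read beside the 411 higher and 2523 lower of all 12002 genes in that setting. Of the genes named as changed, these kept their direction and no longer passed with spike-in scaling: BCL6, BRPF3, BTG1, CCND2, CCNE2, CD38, CIRH1A, CREBBP, DDIT3, DNAJB9, DNAJC3, DUSP2, DUSP7, EP300, EZH2, FAS, FOSL2, FTL, HLA-E, HSPA5, ICAM1, ING5, IRF7, JUNB, KIF2C, KRT18, KRT8, LYN, NFKB1, PTMA, PTPN1, RELA, RPL4, RPS28, RRN3, SIRT7, SP2, SP3, SP4, TNFAIP3, TNFRSF13C, WDR43 and XBP1.

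**Figure D1:**
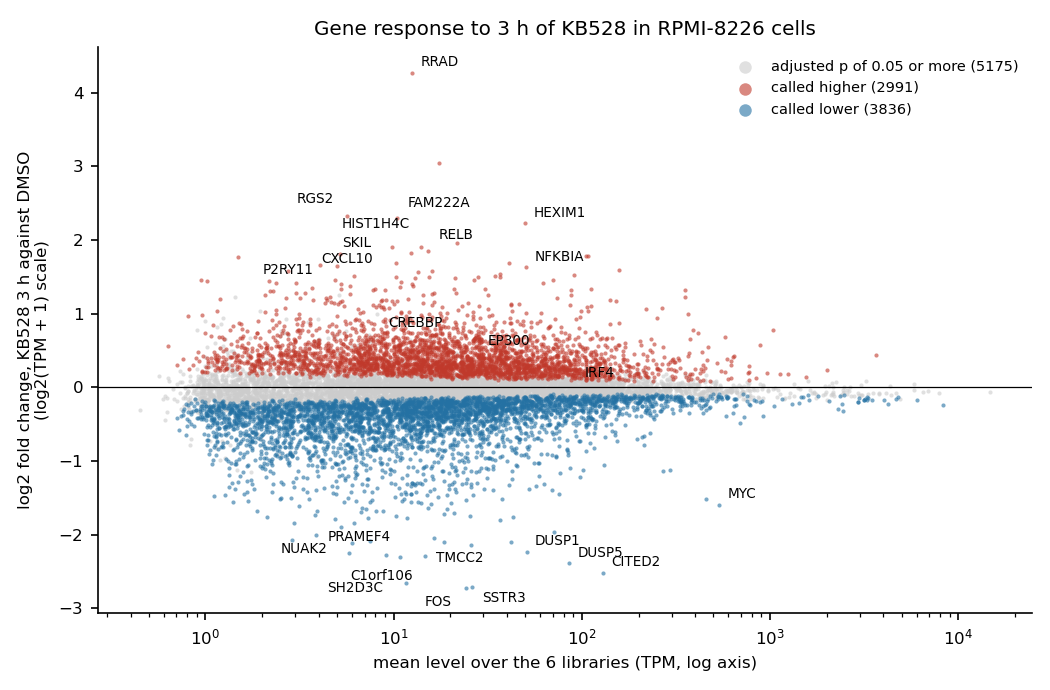
Each point is 1 of 12002 genes. The x axis is the mean level over the 3 KB528 3 h and 3 DMSO libraries in TPM (log axis) and the y axis the log2 fold change, KB528 3 h against DMSO. Red points were called higher (2991), blue points lower (3836) and grey points did not pass. RRAD stands above every other named gene, and CITED2, DUSP5 and MYC fell from levels above 100 TPM in DMSO.

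Upstream sequences of some of the most changed genes are shown so that the short motifs near their starts can be read beside their changes. Of the 20 genes with the largest changes, 10 in each direction, 15 were matched to a RefSeq promoter and used. PRAMEF genes, PRAMEF4 among them, were left out by rule and not for want of a match. The promoters are of build GRCh38.p14, whereas the files use hg19, so no position is carried over. A TATA box (TATAAA, on either strand) lay within 250 bases upstream in 2 of 7 matched increases and 3 of 8 matched decreases, against 5.03% of 9273 promoters of tested genes. The 6 sequences below are the 3 in each direction with most motif kinds, GC boxes not counted; FOS tied with CITED2 and TMCC2 and was taken for its larger change. Capitals mark matches, on either strand, to the TATA box, the CCAAT box (CCAAT), the cAMP response element (TGACGTCA), the AP-1 site (TGANTCA), the E-box (CACGTG), the core of the interferon response element, the NF-kB site, the heat shock element or the ATF4 site (TTGCATCA). GC boxes (GGGCGG) were searched and left in lower case.
HEXIM1, chr17:45148225-45148474, plus strand: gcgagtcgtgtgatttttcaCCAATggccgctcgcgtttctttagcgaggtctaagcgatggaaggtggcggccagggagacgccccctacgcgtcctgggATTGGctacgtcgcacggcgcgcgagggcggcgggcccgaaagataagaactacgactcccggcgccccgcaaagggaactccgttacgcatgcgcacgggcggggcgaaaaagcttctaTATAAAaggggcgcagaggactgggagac
CXCL10, chr4:76023498-76023747, minus strand: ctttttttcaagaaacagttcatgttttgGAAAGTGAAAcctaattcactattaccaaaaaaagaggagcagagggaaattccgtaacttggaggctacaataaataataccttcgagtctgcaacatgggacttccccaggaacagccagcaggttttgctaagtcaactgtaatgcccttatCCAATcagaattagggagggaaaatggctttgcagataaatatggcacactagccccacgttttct
NFKBIA, chr14:35404750-35404999, minus strand: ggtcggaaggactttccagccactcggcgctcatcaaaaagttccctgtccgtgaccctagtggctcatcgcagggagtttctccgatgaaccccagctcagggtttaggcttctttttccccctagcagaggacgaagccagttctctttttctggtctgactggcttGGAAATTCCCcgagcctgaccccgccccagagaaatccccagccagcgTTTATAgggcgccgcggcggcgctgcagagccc
FOS, chr14:75278578-75278827, plus strand: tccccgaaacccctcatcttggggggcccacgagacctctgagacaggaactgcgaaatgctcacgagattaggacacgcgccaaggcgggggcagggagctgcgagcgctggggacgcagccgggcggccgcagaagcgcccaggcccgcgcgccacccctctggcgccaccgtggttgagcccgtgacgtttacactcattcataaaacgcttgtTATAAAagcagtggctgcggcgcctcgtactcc
NUAK2, chr1:205321746-205321995, minus strand: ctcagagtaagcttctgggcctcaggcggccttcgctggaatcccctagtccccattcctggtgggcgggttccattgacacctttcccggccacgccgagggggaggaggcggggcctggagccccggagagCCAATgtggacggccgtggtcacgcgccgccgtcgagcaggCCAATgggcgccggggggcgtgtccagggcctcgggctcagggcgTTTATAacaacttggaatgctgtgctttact
DUSP1, chr5:172771196-172771445, minus strand: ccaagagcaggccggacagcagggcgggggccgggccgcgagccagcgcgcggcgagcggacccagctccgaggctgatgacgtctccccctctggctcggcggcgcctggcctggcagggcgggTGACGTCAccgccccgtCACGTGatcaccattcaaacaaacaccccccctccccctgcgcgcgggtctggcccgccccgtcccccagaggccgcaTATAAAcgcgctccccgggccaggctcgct

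In these windows HEXIM1, NFKBIA, FOS, NUAK2 and DUSP1 held a TATA box 24 to 33 bases before the start. Those of NFKBIA and NUAK2 were on the opposite strand to the gene and read TTTATA here. NFKBIA also held an NF-kB site 72 to 81 bases before its start, CXCL10 an interferon response element core, and DUSP1 a full cAMP response element beside an E-box. The NF-kB site was searched in a single form, 3 G, any 2 bases, 3 T and 2 C, on either strand. Other forms of the site were not searched, so windows without a marked site, that of CXCL10 included, may hold them in lower case. Over all genes, the TATA box was present in 11 of 46 promoters of genes higher past 2-fold (23.9%), 14 of 190 lower past 2-fold (7.37%) and 466 of 9273 tested (5.03%), and in 11.1% of all 27305 promoters in the table. The searched form of the NF-kB site was in 3 of 46 (6.52%), 1 of 190 (0.526%) and 182 of 9273 (1.96%), and in 1.73% of all promoters. The AP-1 site was in 2 of 46 (4.35%), 14 of 190 (7.37%) and 337 of 9273 (3.63%), and in 6.60% of all promoters. A match is a description of letters, and no match says only that those letters are absent from the window.

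The largest increases were genes of signalling and transcriptional control. RRAD, a small GTPase that restrains calcium channels, had 24.4, 24.5 and 25.3 TPM in the KB528 libraries, against 0.282, 0.274 and 0.45 TPM in the DMSO libraries (log2 fold change 4.27 ± 0.099 (SE); limma adjusted p = 1.26e-13). Among the 12002 genes it was the only one below 1 TPM in every DMSO library and at 3 TPM or more in every KB528 library. RGS2, which speeds GTP hydrolysis by G protein alpha subunits, had 9.74, 11.2 and 9.31 TPM in the KB528 libraries, against 1.13, 1.27 and 1.2 TPM in the DMSO libraries (log2 fold change 2.33 ± 0.10 (SE)). FAM222A had 17.7, 16.2 and 19.9 TPM in the KB528 libraries, against 2.84, 2.51 and 3.19 TPM in the DMSO libraries (log2 fold change 2.3 ± 0.088 (SE)). In all 3 genes every KB528 library stood far above every DMSO library, and the rule for naming them required groups that are apart. HEXIM1, the inhibitor that holds P-TEFb inactive, had 83.9, 76.2 and 89.2 TPM in the KB528 libraries, against 16.9, 15.9 and 18 TPM in the DMSO libraries (log2 fold change 2.23 ± 0.10 (SE); limma adjusted p = 1.23e-10). SKIL, which encodes the SMAD repressor SnoN, had 15.4, 15 and 17.8 TPM in the KB528 libraries, against 3.8, 3.06 and 3.74 TPM in the DMSO libraries (log2 fold change 1.91 ± 0.075 (SE)).

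The same rule named members of the NF-kB pathway and its targets. RELB, a subunit of the non-canonical pathway, had 26.6, 22 and 24.6 TPM in the KB528 libraries, against 6.67, 5.69 and 5.75 TPM in the DMSO libraries (log2 fold change 1.85 ± 0.072 (SE)). NFKBIA, whose product I-kappa-B-alpha keeps NF-kB in the cytoplasm, had 77.5, 74.1 and 78.5 TPM in the KB528 libraries, against 23.8, 22.7 and 25.7 TPM in the DMSO libraries (log2 fold change 1.63 ± 0.052 (SE); limma adjusted p = 3.66e-12). Its 3 KB528 values were tightly grouped. CXCL10, a chemokine ligand of the receptor CXCR3, had 14.9, 17.2 and 16.6 TPM in the KB528 libraries, against 4.97, 4.84 and 3.37 TPM in the DMSO libraries (log2 fold change 1.68 ± 0.098 (SE)). P2RY11, an ATP receptor, had 8.58, 6.94 and 8.92 TPM in the KB528 libraries, against 1.83, 1.54 and 2.37 TPM in the DMSO libraries (log2 fold change 1.65 ± 0.22 (SE)); it adjoins PPAN, with which a read-through transcript exists, so its reads may be shared. HIST1H4C, a histone H4 gene of a multi-copy family and uncertain for that reason, had 22.6, 24.4 and 20.9 TPM in the KB528 libraries, against 4.63, 5.83 and 5.48 TPM in the DMSO libraries (log2 fold change 1.91 ± 0.12 (SE)).

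The largest decreases joined an immediate early factor, kinase phosphatases and a p300 partner. FOS, the AP-1 subunit, had 5.39, 5.41 and 5.92 TPM in the KB528 libraries, against 38.6, 35 and 55.8 TPM in the DMSO libraries (log2 fold change -2.72 ± 0.13 (SE); limma adjusted p = 1.82e-10). DUSP5, a nuclear phosphatase of ERK, had 27.2, 25.4 and 27.7 TPM in the KB528 libraries, against 146, 134 and 155 TPM in the DMSO libraries (log2 fold change -2.39 ± 0.053 (SE)). DUSP1, which inactivates p38, JNK and ERK, had 16.3, 16.8 and 17.8 TPM in the KB528 libraries, against 73.7, 70 and 111 TPM in the DMSO libraries (log2 fold change -2.23 ± 0.12 (SE)). For FOS and DUSP1, DMSO replicate 3 was the highest library. The groups did not overlap, which the rule for naming these genes required. CITED2, which binds p300 and CBP and competes for them with other factors, had 35.9, 37.4 and 39.7 TPM in the KB528 libraries, against 218, 202 and 242 TPM in the DMSO libraries (log2 fold change -2.51 ± 0.056 (SE); limma adjusted p = 9.82e-14). NUAK2, a kinase related to AMPK, had 1.47, 1.14 and 1.44 TPM in the KB528 libraries, against 9.71, 8.46 and 12.5 TPM in the DMSO libraries (log2 fold change -2.24 ± 0.11 (SE)).

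The other 5 belonged to different classes. SSTR3, a somatostatin receptor, had 6.01, 6.16 and 6.24 TPM in the KB528 libraries, against 45.7, 42.9 and 49 TPM in the DMSO libraries (log2 fold change -2.71 ± 0.072 (SE)). SH2D3C, an adaptor in integrin and receptor signalling, had 2.48, 2.0 and 2.95 TPM in the KB528 libraries, against 20.4, 19.6 and 22.7 TPM in the DMSO libraries (log2 fold change -2.66 ± 0.088 (SE)). C1orf106, also known as INAVA, had 3.1, 2.39 and 3.46 TPM in the KB528 libraries, against 18.5, 16.2 and 21.3 TPM in the DMSO libraries (log2 fold change -2.31 ± 0.10 (SE)). All KB528 libraries of these genes lay far below the lowest DMSO library, and the naming rule required groups that are apart. TMCC2 had 4.68, 3.67 and 4.7 TPM in the KB528 libraries, against 25.9, 22.6 and 27 TPM in the DMSO libraries (log2 fold change -2.29 ± 0.087 (SE)). PRAMEF4, of the multi-copy PRAME family and uncertain for shared reads, had 2.37, 2.38 and 2.65 TPM in the KB528 libraries, against 16.3, 15.3 and 15.9 TPM in the DMSO libraries (log2 fold change -2.28 ± 0.062 (SE)).

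**Figure D2:**
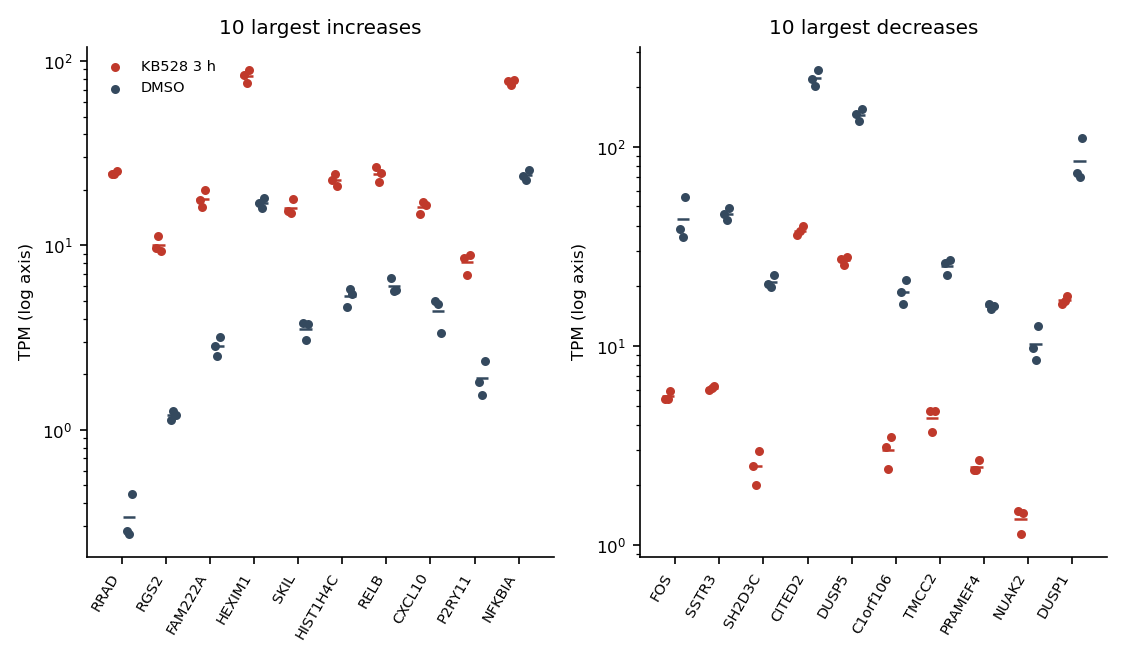
The 10 largest increases (left) and decreases (right) among called genes of at least 5 TPM over the 6 libraries. Each point is 1 library in TPM (log axis), KB528 3 h in red on the left of each gene and DMSO in dark blue on the right, with a line at the mean (n = 3 each). The groups of all 20 genes are apart, which the rule for naming them required.

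A few genes were close to switched off. Those below 1 TPM in every KB528 library and at 3 TPM or more in every DMSO library were PRAMEF11, CALHM2, YPEL2, CLDN4 and KLF9, chosen after their values were seen. KLF9 had 0.699, 0.815 and 0.902 TPM in the KB528 libraries, against 4.32, 3.34 and 4.86 TPM in the DMSO libraries (log2 fold change -1.51 ± 0.097 (SE)). The tight junction gene CLDN4 had 0.967, 0.662 and 0.849 TPM in the KB528 libraries, against 3.47, 4.71 and 4.45 TPM in the DMSO libraries (log2 fold change -1.51 ± 0.092 (SE)). YPEL2 had 0.595, 0.798 and 0.932 TPM in the KB528 libraries, against 4.04, 3.19 and 4.07 TPM in the DMSO libraries (log2 fold change -1.42 ± 0.088 (SE)). All of these groups were apart, which the rule for choosing them required.

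Measured in TPM rather than in folds, the largest shifts lay in abundant transcripts. TUBB4B, a beta tubulin, had 1329, 1284 and 1322 TPM in the KB528 libraries, against 759.9, 739.8 and 783 TPM in the DMSO libraries (log2 fold change 0.78 ± 0.04 (SE)). HSPA5, the ER chaperone BiP, had 1033, 1077 and 1073 TPM in the KB528 libraries, against 718, 664 and 749 TPM in the DMSO libraries (log2 fold change 0.58 ± 0.041 (SE)), and PTMA, which encodes prothymosin alpha, had 2161, 2194 and 2174 TPM in the KB528 libraries, against 1872, 1799.7 and 1888 TPM in the DMSO libraries (log2 fold change 0.23 ± 0.058 (SE)). The groups of these 3 genes did not overlap, which the rule for naming them required. The autophagy receptor SQSTM1 had 482, 487 and 494 TPM in the KB528 libraries, against 247, 234 and 247 TPM in the DMSO libraries (log2 fold change 1.0 ± 0.037 (SE)). The snoRNA host genes GAS5 and SNHG1 averaged 520.1 ± 16.4 TPM with KB528 and 309.9 ± 4.18 TPM with DMSO and 489.8 ± 24.2 TPM with KB528 and 285 ± 9.29 TPM with DMSO (SD, n = 3 each).

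Among TPM losses, FTL, the ferritin light chain, had 7715, 7779 and 7315 TPM in the KB528 libraries, against 8772, 9282 and 8849 TPM in the DMSO libraries (log2 fold change -0.24 ± 0.037 (SE)). MYC had 269, 251 and 280.4 TPM in the KB528 libraries, against 799, 741 and 883 TPM in the DMSO libraries (log2 fold change -1.59 ± 0.059 (SE)). TMSB4X, an actin-binding thymosin, had 2079, 2434 and 1973 TPM in the KB528 libraries, against 2842, 2763 and 2469 TPM in the DMSO libraries (log2 fold change -0.32 ± 0.064 (SE)). Losses of abundant genes were small in proportion, MYC apart. ITGB7, an integrin beta chain, averaged 2076 ± 102 TPM with KB528 and 2538 ± 120.0 TPM with DMSO, and the ribosomal protein genes RPS28 and RPL4 averaged 3888 ± 262 TPM with KB528 and 4569 ± 329 TPM with DMSO and 4417 ± 266 TPM with KB528 and 4941 ± 179 TPM with DMSO (SD, n = 3 each). The RPL4 call ended with the length correction (-0.12, adjusted p = 0.0625 by limma).

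The acetylation machinery itself moved in both directions. EP300 had 29.2, 23.3 and 35.6 TPM in the KB528 libraries, against 21.5, 17.4 and 27.3 TPM in the DMSO libraries (log2 fold change 0.40 ± 0.14 (SE); limma adjusted p = 0.0248). CREBBP had 24, 18.5 and 28.4 TPM in the KB528 libraries, against 16.1, 13.5 and 20.2 TPM in the DMSO libraries (log2 fold change 0.48 ± 0.13 (SE); limma adjusted p = 0.00668). Both passed the test while their groups overlapped. For both genes replicate 3 was highest and replicate 2 lowest in each group, and each KB528 library exceeded the DMSO library of its number. The EP300 call ended without DMSO replicate 1 (0.40, limma adjusted p = 0.0595) or DMSO replicate 2 (0.25, limma adjusted p = 0.139). It also ended without KB528 replicate 1 (0.39, limma adjusted p = 0.0582) or KB528 replicate 3 (0.26, limma adjusted p = 0.131). A fit of the 6 compared libraries alone did not call EP300 (limma adjusted p = 0.0856). With replicate number as a block in the fit, all 236 named genes, EP300 and CREBBP included, kept their direction and side of the threshold. Whether the numbers mark paired cultures was not tested. Of 24 lysine acetyltransferase and complex genes, all tested, 9 rose and 5 fell, with a median log2 fold change of 0.059, and with spike-in scaling 1 rose and 4 fell; without DMSO replicate 2 the counts were 6 and 7, and without KB528 replicate 3 they were 6 and 6. The scaffold genes BRPF1 (log2 fold change 0.74 ± 0.093 (SE)), ING5 and BRPF3 rose, and the coactivator NCOA2 (log2 fold change -1.11 ± 0.10 (SE)) and the acetyltransferase KAT2B, also called PCAF (log2 fold change -0.72 ± 0.078 (SE)), fell.

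Deacetylases fell more often. Of 17 tested deacetylase and sirtuin genes of 18, 3 rose and 10 fell, with a median of -0.17, and 1 rose and 5 fell with spike-in scaling. The class IIa gene HDAC7 had 18.6, 16.4 and 19.4 TPM in the KB528 libraries, against 39.8, 35.5 and 44.3 TPM in the DMSO libraries (log2 fold change -1.09 ± 0.079 (SE)), and HDAC9 averaged 4.06 ± 0.114 TPM with KB528 and 7.93 ± 0.913 TPM with DMSO (SD, n = 3 each). SIRT1, a deacetylase that uses NAD, went the other way with 16.7, 15.9 and 18.4 TPM in the KB528 libraries, against 7.12, 5.99 and 7.57 TPM in the DMSO libraries (log2 fold change 1.19 ± 0.076 (SE)), and SIRT7 also rose (log2 fold change 0.59).

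Of 22 tested partners of p300 and CBP of 26 listed, 4 rose and 6 fell on the TPM scale, against 10 higher and 6 lower with the length correction and 1 and 6 with spike-in scaling. The shares on the TPM scale were 18.2% higher and 27.3% lower, against 24.9% and 32% of all genes. Beside CITED2, the factor MYB had 11.6, 11.9 and 11.9 TPM in the KB528 libraries, against 24.5, 20.3 and 23.6 TPM in the DMSO libraries (log2 fold change -0.89 ± 0.064 (SE)) and STAT2 averaged 17 ± 2.03 TPM with KB528 and 27.1 ± 3.24 TPM with DMSO (SD, n = 3 each), and both fell. ATF5, a stress factor of the ATF family, rose to 32.8, 30.1 and 32.7 TPM in the KB528 libraries, against 14.1, 13.3 and 15.8 TPM in the DMSO libraries (log2 fold change 1.1 ± 0.071 (SE)).

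Genes listed with P-TEFb rose more often than they fell on the TPM scale. Being listed does not make the product of a gene a part of P-TEFb. Of 29 tested of 31, 14 rose and 6 fell, and with spike-in scaling 4 rose and 4 fell. Beside HEXIM1, MEPCE, which caps the 7SK RNA that holds P-TEFb, had 148, 132 and 156 TPM in the KB528 libraries, against 67.8, 66 and 77.8 TPM in the DMSO libraries (log2 fold change 1.03 ± 0.078 (SE)). The BET gene BRD2 had 39.5, 35.7 and 43.3 TPM in the KB528 libraries, against 13.4, 12.1 and 15.7 TPM in the DMSO libraries (log2 fold change 1.46 ± 0.081 (SE)). The kinase gene CDK9 had a log2 fold change of -0.064 and did not pass. SERTAD1 rose (log2 fold change 1.5 ± 0.058 (SE)), whereas SERTAD3 (log2 fold change -0.83 ± 0.081 (SE)) and AFF1, a scaffold of the super elongation complex (log2 fold change -0.66 ± 0.11 (SE)), fell.

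Of 66 Mediator and RNA polymerase II initiation genes, all tested, 25 rose and 9 fell, with 2 higher and 4 lower under spike-in scaling. POLR2A, the largest subunit of RNA polymerase II, had 124, 98.5 and 149 TPM in the KB528 libraries, against 68.7, 55.7 and 85.8 TPM in the DMSO libraries (log2 fold change 0.81 ± 0.14 (SE)). GTF2B, an initiation factor, had 36, 42.3 and 37.7 TPM in the KB528 libraries, against 24.5, 20.6 and 21.5 TPM in the DMSO libraries (log2 fold change 0.77 ± 0.067 (SE)). In both, every KB528 library was above every DMSO library. MED22 (log2 fold change -0.64 ± 0.07 (SE)) and MED11 fell. Of 46 tested chromatin remodelers and histone methylation enzymes of 47, 7 rose and 13 fell (15.2% and 28.3%, against 24.9% and 32% of all genes). With the length correction 21 rose and 15 fell, and with spike-in scaling 0 and 6. The counts on the TPM scale rested on single libraries, being 13 higher and 8 lower without DMSO replicate 3, 13 and 9 without KB528 replicate 2, 3 and 20 without DMSO replicate 2, 3 and 11 without KB528 replicate 1 and 4 and 17 without KB528 replicate 3. In the 6 compared libraries alone 3 rose and 8 fell, and with median-ratio scaling 11 and 17. CHD7 (log2 fold change -0.71 ± 0.089 (SE)) and ARID2 (log2 fold change -0.62 ± 0.086 (SE)) fell, and EZH2, the methyltransferase of Polycomb complexes, rose (log2 fold change 0.35 ± 0.045 (SE)).

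**Figure D3:**
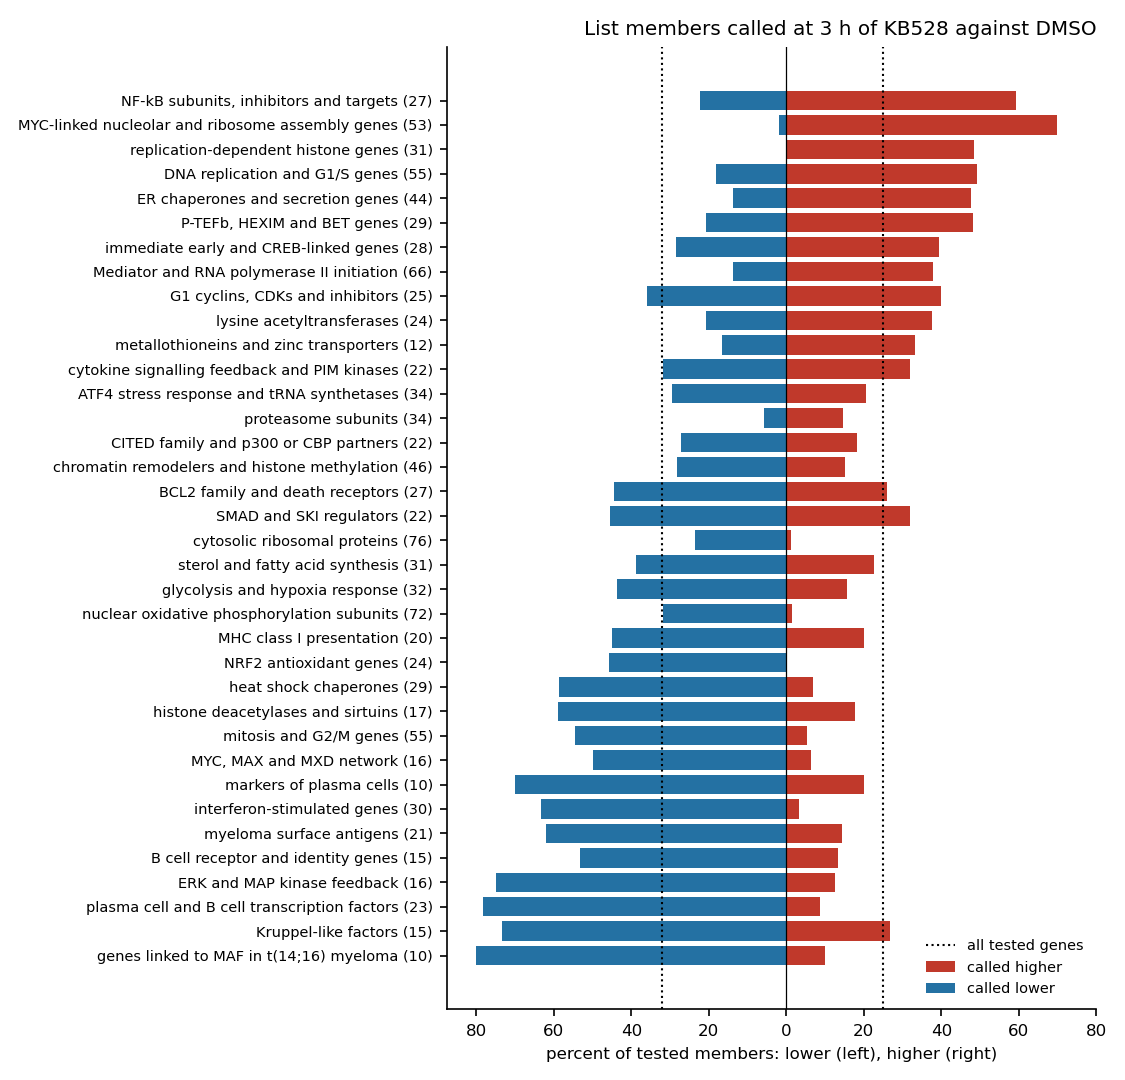
Bars give the percent of tested members called lower (left, blue) and higher (right, red) at KB528 3 h against DMSO for the lists described here that have at least 10 tested members (number in brackets), ordered by median log2 fold change. Dotted lines mark 32% and 24.9%, the shares over all genes. Nucleolar genes reach 69.8% higher, whereas MAF-linked genes reach 80% lower. With spike-in scaling the higher counts of the ER, P-TEFb, Mediator and replication lists fall to 0, 4, 2 and 4. Over all 12002 genes 411 were higher in that setting.

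Transcription factors of plasma and B cells fell as a group, 18 of 23 tested of 29 listed, with 2 higher (0 with spike-in scaling) and a median log2 fold change of -0.83. IRF4 had 86.9, 78.3 and 92 TPM in the KB528 libraries, against 90.5, 81.7 and 103 TPM in the DMSO libraries (log2 fold change -0.091 ± 0.075 (SE); limma adjusted p = 0.316), which did not pass, and the groups overlapped. ZNF217, a repressor and co-regulator, had 4.03, 3.75 and 4.75 TPM in the KB528 libraries, against 16.9, 13.5 and 18.9 TPM in the DMSO libraries (log2 fold change -1.75 ± 0.096 (SE)). IRF1, an interferon-regulated factor, had 11.3, 10.4 and 11.9 TPM in the KB528 libraries, against 29.9, 29.8 and 35.5 TPM in the DMSO libraries (log2 fold change -1.42 ± 0.065 (SE)), and IRF2 and IRF8 also fell (log2 fold changes -1.31 and -0.78). XBP1 (log2 fold change 0.35 ± 0.037 (SE)) and BCL6 (log2 fold change 0.48 ± 0.083 (SE)) were the 2 that rose. Against 1 h, 19 of the 23 were lower and 1 was higher at 3 h on the TPM scale (31.8% of all genes were lower and 15.2% higher).

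Kruppel-like factors and their SP relatives were all called. Of 15 tested of 20 listed, 4 rose and 11 fell, with a median of -0.90, and 1 rose and 10 fell with spike-in scaling. KLF2, which holds lymphocytes quiescent, had 9.54, 8.05 and 9.06 TPM in the KB528 libraries, against 41.9, 38.7 and 47.1 TPM in the DMSO libraries (log2 fold change -2.14 ± 0.08 (SE); limma adjusted p = 1.71e-11). KLF15 had 8.72, 7.74 and 9.2 TPM in the KB528 libraries, against 26.8, 24 and 26.6 TPM in the DMSO libraries (log2 fold change -1.49 ± 0.071 (SE)), and KLF7 had 1.35, 1.26 and 1.53 TPM in the KB528 libraries, against 5.08, 4.46 and 6.13 TPM in the DMSO libraries (log2 fold change -1.38 ± 0.085 (SE)). The KB528 libraries of all 3 lay below every DMSO library. KLF5 rose (log2 fold change 0.78 ± 0.11 (SE)), as did SP2, SP3 and SP4 (log2 fold changes 0.48, 0.32 and 0.29). The SP4 call ended without DMSO replicate 2 (0.20, adjusted p = 0.0824 by limma), without KB528 replicate 3 (0.20, adjusted p = 0.0925) and in the 6 compared libraries alone.

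Genes linked to the factor MAF in t(14;16) myeloma fell in 8 of 10, with 1 higher (0 with spike-in scaling, 2 with median-ratio scaling or the length correction) and a median of -0.95. Their names include TLR4, an innate receptor, with 2.57, 2.71 and 2.97 TPM in the KB528 libraries, against 13.2, 10.2 and 12.1 TPM in the DMSO libraries (log2 fold change -1.77 ± 0.082 (SE)). CCR1, a chemokine receptor, had 35.7, 35.1 and 36 TPM in the KB528 libraries, against 92.6, 85.2 and 92.8 TPM in the DMSO libraries (log2 fold change -1.32 ± 0.042 (SE)). NUAK1 (log2 fold change -1.21 ± 0.086 (SE)) and RND3, a small GTPase (log2 fold change -1.17 ± 0.08 (SE)), also fell, and CCND2 rose (log2 fold change 0.30 ± 0.055 (SE)).

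Surface and receptor genes fell more often than they rose. Of 21 tested myeloma surface antigens of 24, 3 rose and 13 fell, median -0.29, and 0 rose and 11 fell with spike-in scaling. Higher genes numbered 1 without DMSO replicate 2, without KB528 replicate 2 or in the 6 compared libraries alone. The chemokine receptor CXCR4 had 31, 34.8 and 31.4 TPM in the KB528 libraries, against 62.3, 60.7 and 63.3 TPM in the DMSO libraries (log2 fold change -0.92 ± 0.045 (SE)). The 2 chains of the interleukin 6 receptor both fell, IL6R (log2 fold change -0.83 ± 0.072 (SE)) and IL6ST, also called gp130 (log2 fold change -0.72 ± 0.082 (SE)). The costimulatory genes CD86 and CD28 fell (log2 fold changes -0.81 and -0.70), as did CD38 and GPRC5D (-0.26 and -0.41). ICAM1 rose (log2 fold change 0.40 ± 0.067 (SE)), and TNFRSF17, the target BCMA, rose slightly (log2 fold change 0.15 ± 0.062 (SE)), below 0 with spike-in scaling. The GPRC5D call ended without DMSO replicate 1 (-0.29, adjusted p = 0.0972 by limma), DMSO replicate 2 (-0.37, adjusted p = 0.0515) or KB528 replicate 3 (-0.37, adjusted p = 0.0507) and with a pseudocount of 0.1. The TNFRSF17 call ended without DMSO replicate 2 (0.15, adjusted p = 0.0793 by limma), DMSO replicate 3 (0.11, adjusted p = 0.166) or KB528 replicate 2 (0.071, adjusted p = 0.248).

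Of 15 tested B cell receptor and identity genes of 24, 2 rose (0 with spike-in scaling) and 8 fell. CD72, an inhibitory co-receptor, had 2.2, 2.59 and 2.65 TPM in the KB528 libraries, against 7.54, 7.08 and 7.48 TPM in the DMSO libraries (log2 fold change -1.27 ± 0.069 (SE)). The adaptor BLNK (log2 fold change -0.72 ± 0.048 (SE)), the kinases BTK (log2 fold change -0.46 ± 0.044 (SE)) and SYK and the antigen MS4A1, known as CD20, fell. The kinase LYN (log2 fold change 0.60 ± 0.078 (SE)) and the BAFF receptor TNFRSF13C (log2 fold change 0.60 ± 0.14 (SE)) rose.

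Immediate early and CREB-linked genes split, 11 higher and 8 lower of 28 tested of 34, and 4 higher and 7 lower with spike-in scaling. NR4A2, an orphan nuclear receptor, had 6.52, 5.93 and 7.11 TPM in the KB528 libraries, against 2.07, 1.69 and 3.34 TPM in the DMSO libraries (log2 fold change 1.19 ± 0.13 (SE)). JUND had 334, 320.4 and 339 TPM in the KB528 libraries, against 172, 157 and 187 TPM in the DMSO libraries (log2 fold change 0.94 ± 0.056 (SE)), while JUN fell (log2 fold change -1.15). The antiproliferative gene BTG2 had 27.9, 27.4 and 29.4 TPM in the KB528 libraries, against 109, 104 and 129 TPM in the DMSO libraries (log2 fold change -1.97 ± 0.062 (SE)), and BTG1 rose (0.66). Within the AP-1 family, FOS and JUN fell while FOSL1 (log2 fold change 0.87 ± 0.091 (SE)), FOSL2, JUNB and JUND rose. Compared directly with 1 h, 21 of the 28 were lower at 3 h and 0 were higher, at an adjusted p under 0.05 by limma (31.8% of all genes were lower and 15.2% higher).

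Feedback inhibitors of the ERK and MAP kinases fell in 12 of 16 tested of 20, with 2 higher (0 with spike-in scaling) and a median of -0.61. DUSP6, the cytoplasmic ERK phosphatase, had 2.18, 2.0 and 2.17 TPM in the KB528 libraries, against 10.1, 8.97 and 11.5 TPM in the DMSO libraries (log2 fold change -1.84 ± 0.088 (SE)). DUSP4 had 7.31, 6.23 and 7.38 TPM in the KB528 libraries, against 19.3, 16.5 and 20.4 TPM in the DMSO libraries (log2 fold change -1.31 ± 0.074 (SE)). SPRED1, SPRED2 and SPRY1, which restrain Ras signalling, fell too (log2 fold changes -1.06, -0.63 and -0.84). DUSP7 (log2 fold change 0.55 ± 0.09 (SE)) and DUSP2 (log2 fold change 0.27 ± 0.058 (SE)) rose.

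NF-kB genes rose in 16 and fell in 6 of 27 tested of 33, median 0.34, and 4 rose and 4 fell with spike-in scaling. NFKB2, the precursor of the p52 subunit, had 44.5, 39.4 and 45.2 TPM in the KB528 libraries, against 19.4, 19.3 and 21.6 TPM in the DMSO libraries (log2 fold change 1.06 ± 0.07 (SE)). NFKBIZ, a nuclear inhibitor and cofactor, had 4.21, 3.47 and 4.09 TPM in the KB528 libraries, against 1.42, 1.04 and 1.57 TPM in the DMSO libraries (log2 fold change 1.08 ± 0.087 (SE)). TNFAIP3, which encodes the inhibitory enzyme A20, and NFKB1 and RELA rose by less (log2 fold changes 0.47, 0.37 and 0.34). TRAF1 (log2 fold change -0.86 ± 0.089 (SE)) and PLAUR fell. The cytokine genes TNF, LTA, LTB, IL6, CCL3 and CCL4 were below the filter.

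Genes of TGF-beta and SMAD signalling fell in 10 and rose in 7 of 22, all tested, and 3 rose and 9 fell with spike-in scaling. TGFBR2, a receptor chain, fell to 3.75, 3.24 and 4.24 TPM in the KB528 libraries, against 9.22, 7.8 and 9.71 TPM in the DMSO libraries (log2 fold change -1.06 ± 0.087 (SE)), while TGFBR1 rose (log2 fold change 0.80). SMAD3 (log2 fold change -0.92 ± 0.077 (SE)) and the inhibitory SMAD6 (log2 fold change -1.03 ± 0.072 (SE)) fell and were below 4 TPM in every library. The repressor SKI rose with SKIL (log2 fold change 0.80 ± 0.11 (SE)). Of 22 tested cytokine feedback genes of 24, 7 rose and 7 fell (31.8% each way, against 24.9% and 32% of all genes). With spike-in scaling 0 rose and 5 fell. PIM2, a survival kinase of myeloma, had 169, 159 and 176 TPM in the KB528 libraries, against 366, 343 and 404 TPM in the DMSO libraries (log2 fold change -1.14 ± 0.056 (SE)), the phosphatase PTPN6 fell (log2 fold change -0.75 ± 0.044 (SE)) and PTPN1 rose (log2 fold change 0.58 ± 0.07 (SE)).

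CDKN1A, the cyclin-dependent kinase inhibitor p21, had 56.6, 53.8 and 55.4 TPM in the KB528 libraries, against 17, 17 and 21.3 TPM in the DMSO libraries (log2 fold change 1.54 ± 0.077 (SE)). TIGAR, a regulator of glycolysis, had 7.52, 8.61 and 7.77 TPM in the KB528 libraries, against 2.65, 2.36 and 2.67 TPM in the DMSO libraries (log2 fold change 1.33 ± 0.064 (SE)). PHLDA3, a repressor of AKT, rose to 1.8, 1.74 and 2.34 TPM in the KB528 libraries, against 0.111, 0.0772 and 0.0522 TPM in the DMSO libraries. MDM2, a ubiquitin ligase, rose (log2 fold change 0.81), and BTG2 and GADD45A (log2 fold change -0.90 ± 0.073 (SE)) fell. Compared directly with 1 h, when it averaged 159 TPM, CDKN1A at 3 h differed by -1.5 on the log2 scale (limma adjusted p = 1.03e-09).

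Genes of the BCL2 family and death receptors rose in 7 and fell in 12 of 27 tested of 29, and 2 rose and 10 fell with spike-in scaling. BMF, a BH3-only activator of death, had 1.48, 1.6 and 1.91 TPM in the KB528 libraries, against 8.89, 8.21 and 9.58 TPM in the DMSO libraries (log2 fold change -1.9 ± 0.075 (SE)), while BCL2L11, which encodes BIM, had 48.9, 46.1 and 55.2 TPM in the KB528 libraries, against 26.6, 22.9 and 30.8 TPM in the DMSO libraries (log2 fold change 0.89 ± 0.083 (SE)). The effector BAK1 fell (log2 fold change -0.91 ± 0.053 (SE)) and BAX had a log2 fold change of 0.01, which did not pass. Death receptors also parted, TNFRSF10B (log2 fold change 1.17 ± 0.068 (SE)) and FAS rising and TNFRSF1A (log2 fold change -1.33 ± 0.065 (SE)) and TNFRSF10A falling. MCL1, a survival factor of plasma cells, had a log2 fold change of 0.089 and did not pass.

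MYC fell while the nucleolar genes often listed as its targets rose. Of 53 nucleolar and ribosome assembly genes, all tested, 37 rose and 1 fell, with a median of 0.30, and 2 rose and 0 fell with spike-in scaling. POLR1C, a subunit of RNA polymerases I and III, had 129, 133 and 123 TPM in the KB528 libraries, against 65.7, 66 and 66 TPM in the DMSO libraries (log2 fold change 0.95 ± 0.043 (SE)). WDR43 (log2 fold change 0.71 ± 0.051 (SE)) and the polymerase I factor RRN3 (log2 fold change 0.68 ± 0.057 (SE)) rose, and CIRH1A fell (log2 fold change -0.14 ± 0.043 (SE)), without passing in the 6 compared libraries alone. Lower genes numbered 3 without DMSO replicate 2 or KB528 replicate 2. Against 1 h, 30 of the 53 were higher at 3 h and 0 lower on the TPM scale (15.2% of all genes were higher and 31.8% lower). Over all genes this higher count was 1829 on the TPM scale, 2939 with median-ratio scaling and 81 with spike-in scaling. In the MYC network, 1 rose and 8 fell of 16 tested of 19, with 2 higher without DMSO replicate 3 or KB528 replicate 2: MXD1, an antagonist of MYC, had 13.5, 12.3 and 14.1 TPM in the KB528 libraries, against 4.79, 4.22 and 5.16 TPM in the DMSO libraries (log2 fold change 1.32 ± 0.073 (SE)), and TXNIP, MXI1 and MYCL fell (log2 fold changes -1.06, -0.85 and -0.81).

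On the TPM scale, replication genes more often rose and mitosis genes more often fell. Of 55 replication and G1/S genes, all tested, 27 rose and 10 fell, and 4 rose and 4 fell with spike-in scaling; 6 fell without DMSO replicate 3. UHRF1, a maintenance factor of DNA methylation, had 63, 57.9 and 72.6 TPM in the KB528 libraries, against 29.4, 25.1 and 31.8 TPM in the DMSO libraries (log2 fold change 1.14 ± 0.08 (SE)), and RRM2, a subunit of ribonucleotide reductase, had 292, 290.5 and 303 TPM in the KB528 libraries, against 140.5, 128 and 156 TPM in the DMSO libraries (log2 fold change 1.06 ± 0.054 (SE)). The origin factor ORC6 averaged 122 ± 4.61 TPM with KB528 and 63.7 ± 1.7 TPM with DMSO (SD, n = 3 each; log2 fold change 0.93 ± 0.04 (SE)). Of 55 mitosis and G2/M genes, all tested, 3 rose and 30 fell, median -0.17, and 0 rose and 21 fell with spike-in scaling. Higher genes numbered 5 without DMSO replicate 1 or DMSO replicate 3, 6 with median-ratio scaling and 10 with the length correction. BUB1B, a spindle checkpoint kinase, had 29.7, 30 and 31.2 TPM in the KB528 libraries, against 53.8, 45.6 and 51.2 TPM in the DMSO libraries (log2 fold change -0.71 ± 0.058 (SE)), and ASPM (log2 fold change -0.70 ± 0.097 (SE)) and HMMR (log2 fold change -0.64 ± 0.054 (SE)) fell, whereas KIF2C rose (log2 fold change 0.23 ± 0.039 (SE)).

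Of 25 tested G1 cyclins, kinases and inhibitors of 26, 10 rose and 9 fell, and 4 rose and 5 fell with spike-in scaling. The phosphatase CDC25A had 74.9, 70.6 and 80.3 TPM in the KB528 libraries, against 42.4, 37 and 43.1 TPM in the DMSO libraries (log2 fold change 0.87 ± 0.057 (SE)), and the cyclins CCNE1 and CCNE2 rose (log2 fold change 0.73 ± 0.071 (SE) and log2 fold change 0.69 ± 0.068 (SE)). E2F2 (log2 fold change -0.62 ± 0.087 (SE)) and CDK6 (log2 fold change -0.58 ± 0.10 (SE)) fell. Of 31 tested histone genes of 44, multi-copy and uncertain, 15 rose and 0 fell on the TPM scale, and 5 rose and 7 fell with spike-in scaling. At most 4 fell when 1 library was left out, the 4 being without DMSO replicate 3.

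Stress pathways differed from each other. Of 44 ER chaperone and secretion genes, all tested, 21 rose and 6 fell, median 0.12, and 0 rose and 2 fell with spike-in scaling; 3 fell without KB528 replicate 1 or in the 6 compared libraries alone. The co-chaperones DNAJB9 (log2 fold change 0.70 ± 0.062 (SE)) and DNAJC3 (log2 fold change 0.61 ± 0.071 (SE)) rose with HSPA5, while ERN1, the sensor IRE1, had 12, 11.7 and 15.4 TPM in the KB528 libraries, against 29.6, 24.3 and 35.4 TPM in the DMSO libraries (log2 fold change -1.12 ± 0.11 (SE)). Of 29 tested heat shock chaperones of 32, 2 rose and 17 fell (0 and 12 with spike-in scaling), among them SERPINH1 (log2 fold change -0.69 ± 0.059 (SE)) and BAG3 (log2 fold change -0.60 ± 0.065 (SE)). HSPA1A, an inducible chaperone, fell and was below 2 TPM in each library (0.933 TPM with KB528 and 1.58 TPM with DMSO on average). NRF2 antioxidant genes had 0 higher and 11 lower of 24, all tested, and the lower count was 6 without DMSO replicate 1, 5 without DMSO replicate 3 or KB528 replicate 1, 4 in the 6 compared libraries alone and 3 with spike-in scaling. With the length correction 4 were higher and 10 lower. In this list MAFG fell (log2 fold change -0.48 ± 0.073 (SE)), and the markers NQO1 and HMOX1 had log2 fold changes of 0.014 and -0.043 and did not pass.

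Of 34 tested ATF4 response and tRNA synthetase genes of 36, 7 rose and 10 fell, and 13 rose and 10 fell with the length correction and 1 and 6 with spike-in scaling. On the TPM scale 20.6% were higher and 29.4% lower, against 24.9% and 32% of all genes. DDIT3, which encodes CHOP, rose (log2 fold change 0.64 ± 0.085 (SE)), and the amino acid transporter SLC38A2 fell (log2 fold change -0.51 ± 0.062 (SE)). Of 12 tested metallothionein and zinc transporter genes of 14, 4 rose and 2 fell, and 2 rose and 3 fell with spike-in scaling; 1 fell without KB528 replicate 3 or without either of DMSO replicates 1 and 2. MT1X averaged 183 ± 11.9 TPM with KB528 and 100.4 ± 8.55 TPM with DMSO (SD, n = 3 each; log2 fold change 0.86 ± 0.062 (SE)), and the zinc exporter SLC30A1 rose (log2 fold change 0.77 ± 0.10 (SE)).

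Interferon-stimulated genes rose in 1 and fell in 19 of 30 tested of 47, median -0.25, and 0 rose and 12 fell with spike-in scaling. OAS1, a sensor of double-stranded RNA, had 6.97, 6.74 and 7.14 TPM in the KB528 libraries, against 18.7, 19.2 and 19.1 TPM in the DMSO libraries (log2 fold change -1.33 ± 0.069 (SE)). IFIT5 (log2 fold change -1.17 ± 0.08 (SE)), IFIT3 (log2 fold change -0.95 ± 0.078 (SE)) and SAMD9L (log2 fold change -1.13 ± 0.076 (SE)) fell, and the factor IRF7 rose (log2 fold change 0.65 ± 0.053 (SE)). The 17 that were not tested include IFIT2, IFI44L and RSAD2. MHC class I presentation genes rose in 4 and fell in 9 of 20 tested of 22 (0 and 1 with spike-in scaling), the regulator NLRC5 falling (log2 fold change -0.36 ± 0.087 (SE)) and HLA-E rising (log2 fold change 0.37 ± 0.05 (SE)).

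Housekeeping sets moved little. Of 76 tested cytosolic ribosomal protein genes of 77, 1 rose and 18 fell, median -0.084. The lower count was 48 without KB528 replicate 2, 42 without DMSO replicate 3, 5 without DMSO replicate 2 and 6 without any other single library, and it was 6 with median-ratio scaling, 11 with the length correction and 1 with spike-in scaling. RPL13A had the lowest log2 fold change (-0.38). Of 72 nuclear oxidative phosphorylation genes, 1 rose and 23 fell (1.39% and 31.9%, against 24.9% and 32% of all genes), median -0.11. The lower count was 42 without KB528 replicate 2, 41 without DMSO replicate 3, 13 without DMSO replicate 1, KB528 replicate 1 or KB528 replicate 3, 11 in the 6 compared libraries alone and 2 with spike-in scaling. Of 34 proteasome subunits, 5 rose and 2 fell, all within 0.16 of 0 on the log2 scale. Without KB528 replicate 2 the proteasome counts were 1 and 7, without DMSO replicate 3 they were 3 and 5, without DMSO replicate 2 they were 2 and 1, and 0 fell without any other single library; in the 6 compared libraries alone and with spike-in scaling 0 passed in either direction. With spike-in scaling RPL17, NDUFA5, PSMD6, PSMD7, PSMD11 and PSMD14, called higher on the TPM scale, had values below 0. Each of these 6 calls also ended without KB528 replicate 2 or, for PSMD11, without KB528 replicate 3, with limma adjusted p-values of 0.105, 0.241, 0.0748, 0.0702, 0.0787 and 0.165 in that order.

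Metabolic genes were mixed. Of 31 tested sterol and fatty acid genes of 32, 7 rose and 12 fell (1 and 6 with spike-in scaling). IDI1, which isomerises isopentenyl diphosphate, averaged 149.7 ± 13.7 TPM with KB528 and 88.7 ± 4.55 TPM with DMSO (SD, n = 3 each; log2 fold change 0.75 ± 0.055 (SE)), while MSMO1 (log2 fold change -0.57 ± 0.046 (SE)) and the lipogenic factor SREBF1 (log2 fold change -0.50 ± 0.079 (SE)) fell. Of 32 tested glycolysis and hypoxia genes of 33, 5 rose and 14 fell (1 and 10 with spike-in scaling). The peptide hormone ADM had 18.9, 18.2 and 18.3 TPM in the KB528 libraries, against 45.6, 41.9 and 46.1 TPM in the DMSO libraries (log2 fold change -1.22 ± 0.045 (SE)), the glucose transporter SLC2A3 fell (log2 fold change -0.81 ± 0.077 (SE)) and hexokinase HK2 rose (log2 fold change 0.75 ± 0.079 (SE)).

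The 3 h libraries were also compared directly with those of 1 h and 6 h, without the shared controls. Against 1 h, 1829 genes were higher (15.2%) and 3816 lower (31.8%) at 3 h; against 3 h, 5074 were higher (42.3%) and 1648 lower (13.7%) at 6 h. These splits depend on scaling. With median-ratio scaling 2939 exceeded and 3560 fell short of their 1 h level at 3 h. In the same setting 3103 exceeded and 3600 fell short of their 3 h level at 6 h. Spike-in scaling moved the splits differently, with 81 above and 2070 below their 1 h level at 3 h. It put 7362 above and 232 below their 3 h level at 6 h. Of the 278 genes lower past 2-fold, 231 are protein-coding; 228 of these were lower than at 1 h, and at 6 h 150 were higher again and 39 lower still. Of the 139 higher past 2-fold, 59 are protein-coding; 46 were higher than at 1 h, and at 6 h 41 were lower again and 6 higher still.

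Genes first called at 3 h, with a difference from 1 h in the same direction, numbered 1026 higher (8.55%) and 2421 lower (20.2%) on the TPM scale. KLF2 had 42.6 TPM in DMSO, 48.1 TPM at 1 h, 8.88 TPM at 3 h, 7.48 TPM at 6 h and 13.4 TPM at 24 h (3 h minus 1 h, -2.31 ± 0.08 (SE) on the log2 scale). TRIB1, a pseudokinase that directs protein degradation, had 30.8 TPM in DMSO, 33.6 TPM at 1 h, 6.29 TPM at 3 h, 7.29 TPM at 6 h and 12.8 TPM at 24 h (-2.25 ± 0.12 (SE)). P2RX7, an ATP-gated channel, had 29.8 TPM in DMSO, 27.7 TPM at 1 h, 8.77 TPM at 3 h, 2.47 TPM at 6 h and 9.17 TPM at 24 h (-1.56 ± 0.088 (SE)). At 1 h the test called 0 of these 3 genes, which the rule required. ST3GAL5, a sialyltransferase, CYTH4 and TMEM51 followed (-1.4 ± 0.074 (SE), -1.49 ± 0.061 (SE) and -1.59 ± 0.059 (SE)).

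The 6 named increases of this kind were smaller than the 6 decreases. MT1X had 100.4 TPM in DMSO, 112 TPM at 1 h, 183 TPM at 3 h, 189 TPM at 6 h and 57.7 TPM at 24 h (3 h minus 1 h, 0.69 ± 0.062 (SE) on the log2 scale). FIGNL1, an AAA ATPase of recombination, had 16.5 TPM in DMSO, 18.9 TPM at 1 h, 30 TPM at 3 h, 32.4 TPM at 6 h and 20.5 TPM at 24 h (0.64 ± 0.066 (SE)). PPAN, a nucleolar gene that adjoins P2RY11, had 12 TPM in DMSO, 13.5 TPM at 1 h, 22.6 TPM at 3 h, 15.3 TPM at 6 h and 8.98 TPM at 24 h (0.72 ± 0.12 (SE)). ZNF784, DNLZ and C2orf48 complete the 6 (0.71 ± 0.13 (SE), 0.70 ± 0.08 (SE) and 0.76 ± 0.14 (SE)).

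Genes with a turning point at 3 h, further from DMSO than at 1 h and moving back by 6 h, numbered 268 higher (2.23%) and 1281 lower (10.7%) on the TPM scale. These counts rest on the 6 h against 3 h calls, which turn to 3103 higher and 3600 lower with median-ratio scaling. They are not given for other scalings. Of 36 calls between times for genes named by the rules on timing, 34 held with median-ratio scaling and 30 with spike-in scaling. HEXIM1 had 16.9 TPM in DMSO, 45.8 TPM at 1 h, 83.1 TPM at 3 h, 59.3 TPM at 6 h and 17 TPM at 24 h (6 h minus 3 h, -0.48 ± 0.10 (SE) on the log2 scale). RGS2 had 1.2 TPM in DMSO, 4.2 TPM at 1 h, 10.1 TPM at 3 h, 5.4 TPM at 6 h and 1.28 TPM at 24 h (-0.79 ± 0.10 (SE)). DUSP5 had 145 TPM in DMSO, 99.6 TPM at 1 h, 26.8 TPM at 3 h, 121 TPM at 6 h and 161 TPM at 24 h (2.14 ± 0.053 (SE)). CITED2 had 221 TPM in DMSO, 143 TPM at 1 h, 37.7 TPM at 3 h, 80.8 TPM at 6 h and 198 TPM at 24 h (1.08 ± 0.056 (SE)). TMCC2 and C1orf106 also moved back (1.96 ± 0.087 (SE) and 0.81 ± 0.10 (SE)), whereas the return of SSTR3 and SH2D3C by 6 h was small (0.20 ± 0.072 (SE) and 0.25 ± 0.088 (SE)). These 2 small returns are near the gap in median-ratio factors between the times. On the log2 scale the factors were 0.051 to 0.11 at 3 h and -0.13 to -0.033 at 6 h. FAM222A, HIST1H4C, RELB and P2RY11 complete the increases of this kind.

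**Figure D4:**
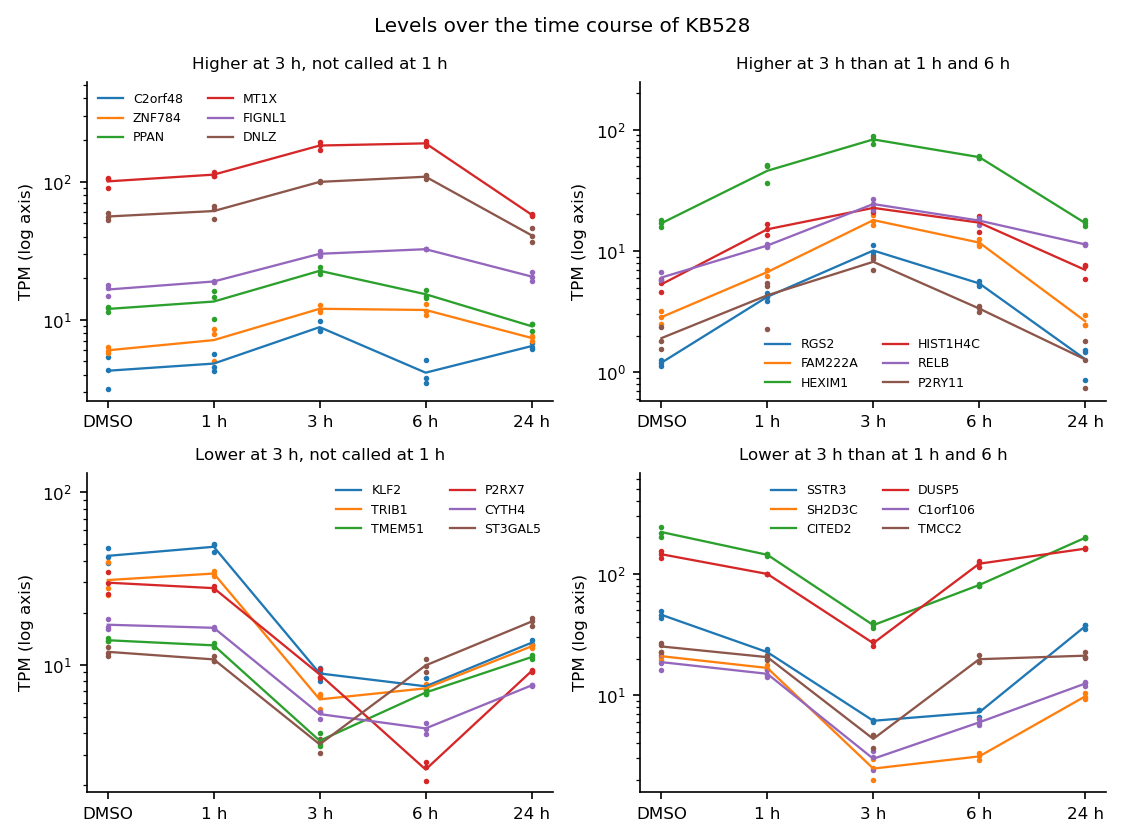
TPM (log axis) over DMSO (0 h) and 1, 3, 6 and 24 h of KB528 for genes named by the rules on timing. Points are libraries and lines join the means (n = 3 at each time). The left panels hold genes not called at 1 h and the right panels genes whose 3 h level was past that of 1 h and 6 h, such as DUSP5 below and HEXIM1 above.

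In 175 genes (1.46%) the calls at 1 h and 3 h were in opposite directions and the 2 times differed by the direct test. Those the rules name are ANKRD37, CDK6, CHAC1, CHD7, DUSP4, IFIT3 and MAFF, each above DMSO after 1 h of KB528 and below it after 3 h.

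The share of genes called in each direction varied with gene span, and less with transcript length. With protein-coding genes split into 10 equal bins by genomic span, the bin of the longest genes, of 145 kb or more, had 7.49% higher and 42.3% lower (median log2 fold change -0.15). The bin around a median of 34.4 kb had 31.9% higher and 27.7% lower (median 0.013), and the bin of the shortest 22% higher and 35.1% lower (median -0.070). By transcript length, bins had 16.2% to 31.1% higher and 30.2% to 34% lower, with medians between -0.077 and 0.002. Spans and lengths were taken by gene name from an annotation of a later build than that of the files.

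**Figure D5:**
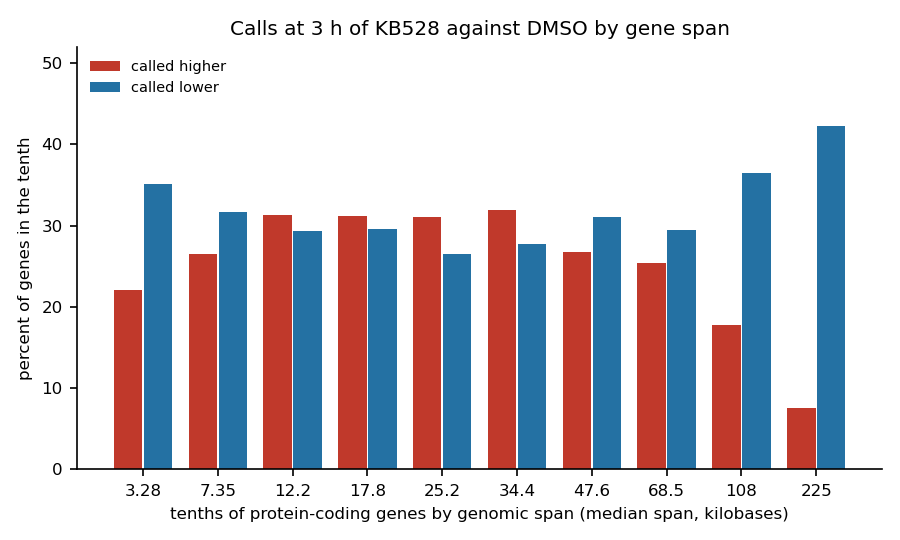
Percent of genes called higher (red) and lower (blue) at KB528 3 h against DMSO in 10 equal bins of protein-coding genes by genomic span, labelled with the median span in kilobases. The higher share is 7.49% in the bin of longest genes and 31.9% in bin 6.

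Non-coding genes moved apart by class. Of 506 long non-coding RNA genes matched by name, 62 rose (15 with spike-in scaling) and 243 fell, median -0.24. Of 185 genes annotated as small nucleolar RNAs, 132 rose and 1 fell, median 0.73; with the length correction 61 rose and 5 fell of 167, median 0.33, and with spike-in scaling 99 rose and 3 fell. Small RNAs are poorly represented in libraries made from polyadenylated RNA, so their TPM are uncertain, and the 398 genes named as small RNAs, of which 181 rose and 22 fell (84 and 56 of 379 with the length correction), were left out of the rules for naming genes.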

How the data were processed

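Strand-specific mRNA libraries of RPMI-8226 cells were read as TPM in 1 table that the authors deposited; each of its 15 columns sums to 1000000 with the spike-ins included. The submitters' processing notes name FastQC, MultiQC, STAR, featureCounts and the genome build hg19; versions, strand setting and annotation are not given in the sources used here. TPM carry no read totals, so no count model was used and precision rests on the spread between 3 libraries a group. All columns were mapped to samples.

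The 12002 genes averaging 1 TPM or more across all 15 columns went into limma 3.58.1 (R 4.3.3) on log2(TPM + 1), with 5 groups, an intensity trend and Benjamini-Hochberg adjustment over all of them at 0.05. With the added 1, folds of weakly expressed genes come out too small. The fit was tested on simulated data. Spike-in rows entered neither filter nor test, and small RNAs were left out of the rules for naming genes.

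Named genes were the 10 largest log2 changes in each direction among called genes of at least 5 TPM with groups apart, the 6 largest TPM changes, up to 4 called members of a list in its majority direction and 2 in the other, the 6 largest that changed first or turned at 3 h, and EP300, CREBBP, IRF4 and MYC; other list members named were chosen after their values were seen. Members and lists were chosen with earlier results of these data known. Lists are described by counts and medians, with no test over a list. A few genes and 1 list are not reported here. Promoters are from RefSeq (GRCh38.p14), and lengths and spans from GENCODE release 29 and RefSeq by gene name. Alternatives were spike-in and median-ratio scaling, a correction for transcript length, other filters and pseudocounts, no trend, the 6 compared libraries alone, a replicate block and each library left out.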

Additional observations from a re-analysis of the deposited data

Results flagged for a closer look

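Differences between times are given here because 3 h departs from both neighbours. By limma at an adjusted p under 0.05, 1829 genes were higher and 3816 lower at 3 h than at 1 h, and 5074 were higher and 1648 lower at 6 h than at 3 h. The contrasts with DMSO at 1 h and 3 h share their control libraries, but the differences between times do not use them.

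Of the named genes, 7 were called higher at 1 h and lower at 3 h. CHAC1, a glutathione-degrading enzyme of the stress response, differed by -1.26 on the log2 scale between 3 h and 1 h, and the phosphatase DUSP4 by -1.55. The hypoxia gene ANKRD37 differed by -1.47, the interferon-stimulated gene IFIT3 by -1.25 and MAFF, a small MAF factor, by -1.15. The chromatin remodeler CHD7 and the kinase CDK6 differed by -1.04 and -0.89.

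Spike-in RNA took 15.5% ± 1.57 of TPM on average with KB528 at 3 h and 13.3% ± 1.82 with DMSO (SD, n = 3 each). The 3 h mean lay above every DMSO library, although the libraries of the 2 groups overlapped. Its part in the other results was not tested.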

How the results depend on the processing

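Scaling moved the counts most. With spike-in scaling 411 genes were higher and 2523 lower at 3 h than in DMSO (2991 and 3836 on the TPM scale); among list genes 46 were higher and 217 lower (280 and 353). Between times it put 81 above and 2070 below their 1 h level at 3 h, and 232 lower at 6 h than at 3 h. The length correction gave 3938 higher at 3 h than at 1 h and 3182 lower at 6 h than at 3 h, and median-ratio scaling 2939 higher at 3 h than at 1 h, with 3103 above and 3600 below their 3 h level at 6 h. The spike-in factors also differed within groups. On the log2 scale they were 0.25, -0.14 and -0.043 for DMSO replicates 1 to 3 and -0.30, -0.029 and -0.28 for KB528 at 3 h. The part of this spread in the lost calls, and the cause of the moves, was not tested. With spike-in scaling DNAJA1 (-0.076), NDUFA5 (-0.038), PDIA3 (-0.024), PSMD11 (-0.081), PSMD14 (-0.082), PSMD6 (-0.064), PSMD7 (-0.080), RPL17 (-0.015) and TNFRSF17 (-0.068), all called higher on the TPM scale, had log2 fold changes below 0. Leaving out 1 library gave 2505 to 3237 higher and 3252 to 4303 lower genes. Of 3509 values of 236 named genes under the alternatives, 129 no longer passed, 57 of them with spike-in scaling, and 9 changed sign; 167 genes kept their direction and side of the threshold under every alternative that gave them a value. The replicate numbers matched the libraries only in part, with correlations of same-numbered deviations of -0.157, 0.338 and 0.430. KB528 replicates 2 and 3 were closest to the DMSO replicate of the same number. KB528 replicate 1 was closest to DMSO replicate 3 (0.144). Whether the numbers mark paired cultures was not tested. With the replicate block 3035 genes were higher and 3915 lower. Without read totals, the depth limit of low genes cannot be given.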

Other observations

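Several gene families outside the lists, chosen after their values were seen, moved largely one way. Of 366 tested C2H2 zinc finger genes named ZNF, 186 rose and 44 fell (median log2 fold change 0.20), and with spike-in scaling 13 rose and 31 fell. Of 11 serine and arginine rich splicing factors, 10 rose and 0 fell, and with spike-in scaling 1 rose. Of 21 tested snoRNA host genes, 16 rose and 3 fell, and 5 rose and 3 fell with spike-in scaling. Of 20 tested heterogeneous nuclear ribonucleoproteins, 8 rose and 1 fell, and 0 passed in either direction with spike-in scaling; 2 fell without DMSO replicate 2. Over all genes 24.9% rose and 32% fell on the TPM scale, and 411 rose and 2523 fell of 12002 with spike-in scaling.

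Receptor families differed from each other. All 5 tested Toll-like receptor genes, CD180 among them, fell (median -1.43), as did 4 of 5 tested butyrophilins (median -0.94) and 6 of 7 tested purinergic receptors, with 1 higher. Of 14 tested tumour necrosis factor receptors 5 rose and 6 fell (median -0.16), and 2 rose and 6 fell with spike-in scaling. The 3 tested PRAME family genes fell (median -2.08) and may share reads. Of 119 tested long intergenic genes named LINC, 8 rose (4 with spike-in scaling) and 56 fell. Of 113 tested C/D box snoRNAs 85 rose and 0 fell (median 0.81), in libraries of polyadenylated RNA; with the length correction 32 rose and 1 fell of 97 (median 0.31), and with spike-in scaling 68 rose and 2 fell.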
